A study of Mus musculus with 13 samples.

Results

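Hepatocyte growth factor (HGF), its activator and receptor, and the epidermal growth factor (EGF) ligands and receptors of the liver were followed in whole-liver RNA sequencing of mice. The 10 genes Hgf, Hgfac, Met, Tgfa, Hbegf, Btc, Areg, Egfr, Erbb2 and Erbb3 were taken by name from a table of 22048 genes, through their Ensembl identifiers. All 10 were present in the table, and 9 passed the filter on low counts. Areg did not.

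HGF is secreted as an inactive single chain, mainly by stellate and endothelial cells of the liver, and is cut into its active form by serine proteases, of which HGF activator (gene Hgfac) is one. It then binds MET on hepatocytes. Transforming growth factor alpha (Tgfa), heparin-binding EGF-like growth factor (Hbegf), betacellulin (Btc) and amphiregulin (Areg) are made as membrane proteins, released by ADAM proteases, and bind EGFR or, for some of them, other ErbB receptors. Both receptor families signal through RAS and ERK and through PI3 kinase and AKT, and the ligands of both are known as direct mitogens of hepatocytes in regeneration.

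The 13 livers formed 3 groups. The 6 control livers are described only as having undergone no depletion of hepatic stellate cells, with males as replicates 1, 2 and 6 and females as replicates 3, 4 and 5. In 4 livers the stellate cells, vitamin A-storing mesenchymal cells of the sinusoid, had been depleted (a male as replicate 3 and females as replicates 1, 2 and 4). The other 3 livers, not depleted, were taken 72 h after partial hepatectomy, an operation in which some liver lobes are cut away (males as replicates 1 and 2, a female as replicate 3). The labels do not state a genotype, strain, age or means of depletion, or whether controls were operated on. They also do not say that each library is from a separate animal, so p-values measure the spread between these libraries.

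Total counts ran from 35360991 to 51008737 per library, and 3 counts, the least taken as a signal here, corresponded to 0.0588 to 0.0848 CPM, the count of a gene per 1000000 counts of its library. Levels are CPM after TMM scaling, which is meant to adjust for differences in library composition. Hepatocyte markers dominated every library, at 68411 to 179310 CPM summed over 8 genes. The 14 stellate cell markers summed to 338 to 855 CPM in controls, 10.9, 11.1, 15.1 and 75.9 CPM in depleted replicates 1 to 4, and 362 to 684 CPM after hepatectomy. All 14 were lower in the depleted livers by the edgeR test. Control 6 stood apart from the other controls, with the lowest sums of the stellate, sinusoidal endothelial (92.7 CPM, median of the controls 352 CPM) and Kupffer cell markers (52.2 CPM, median 349 CPM). Hepatectomy replicate 2 was low in the same endothelial and Kupffer sums, at 95.0 and 58.3 CPM.

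Across the 9 genes tested, depletion of stellate cells was accompanied by lower Hgf and Erbb3 and higher Hbegf, while none of the 9 passed the test between hepatectomised and control livers. With the quasi-likelihood test of edgeR (model of group and sex, threshold 0.05 on p-values adjusted over all genes), 3 of the 9 differed between depleted and control livers, where 33.9% of all 13831 genes tested did. Of the 3, 1 rose, where 18.9% of all genes did, and 2 fell, where 15% did. The median log2 fold change of the 9 was -0.44, against -0.03 for all genes tested. In 1 of the 9, Erbb3, no depleted liver overlapped with a control, which held for 28.4% of all genes. After hepatectomy 0 of 9 differed from controls, where 8.44% of all genes did (6.07% higher, 2.38% lower), and the median of the 9 was -0.11, against -0.02 for all genes. None of the 9 had an unadjusted edgeR p under 0.05, and DESeq2 and limma-voom also called 0. Between depleted and hepatectomised livers 2 of 9 differed, Hgf and Erbb3, where 23.4% of all genes did. Both were lower, as were 10.1% of all genes, and these 2 were also the ones whose ranges did not overlap, as was the case for 34% of all genes. The comparisons with controls share the same 6 control livers.

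**Figure D1:**
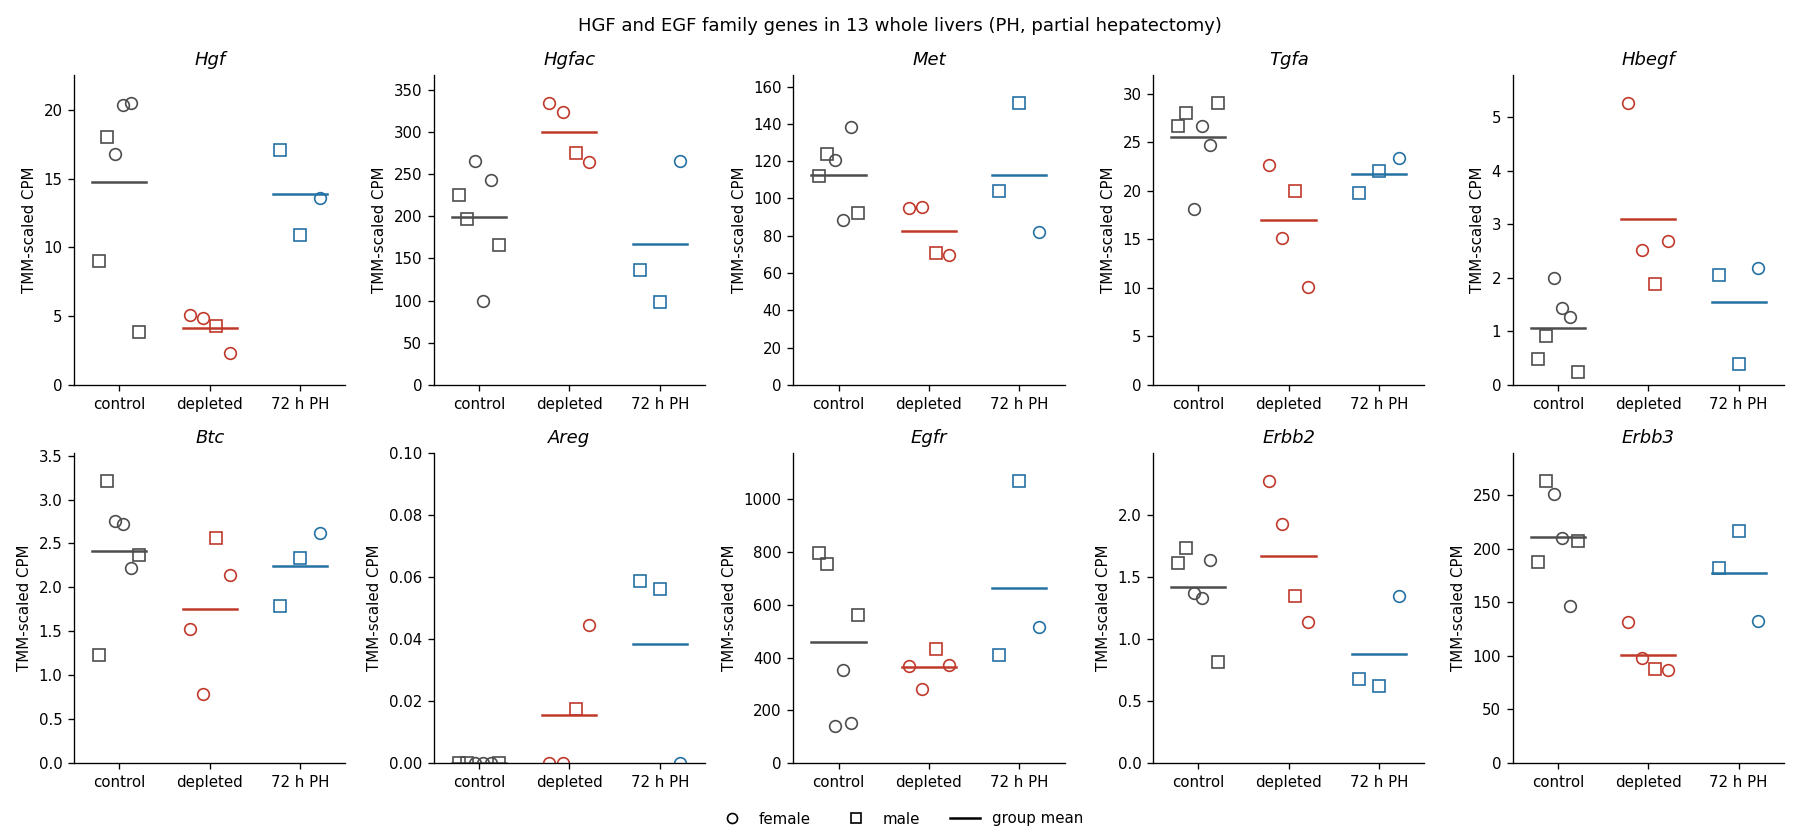
TMM-scaled CPM (vertical axis, linear, from 0) of each of the 10 genes in 6 control, 4 stellate cell-depleted and 3 hepatectomised livers. Circles are females, squares males, and lines group means. Erbb3 of all 4 depleted livers lies below every control, Hgf lies near 5 CPM or lower in depleted livers and in control 6, and male controls lie above female controls in Egfr.

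**Figure D2:**
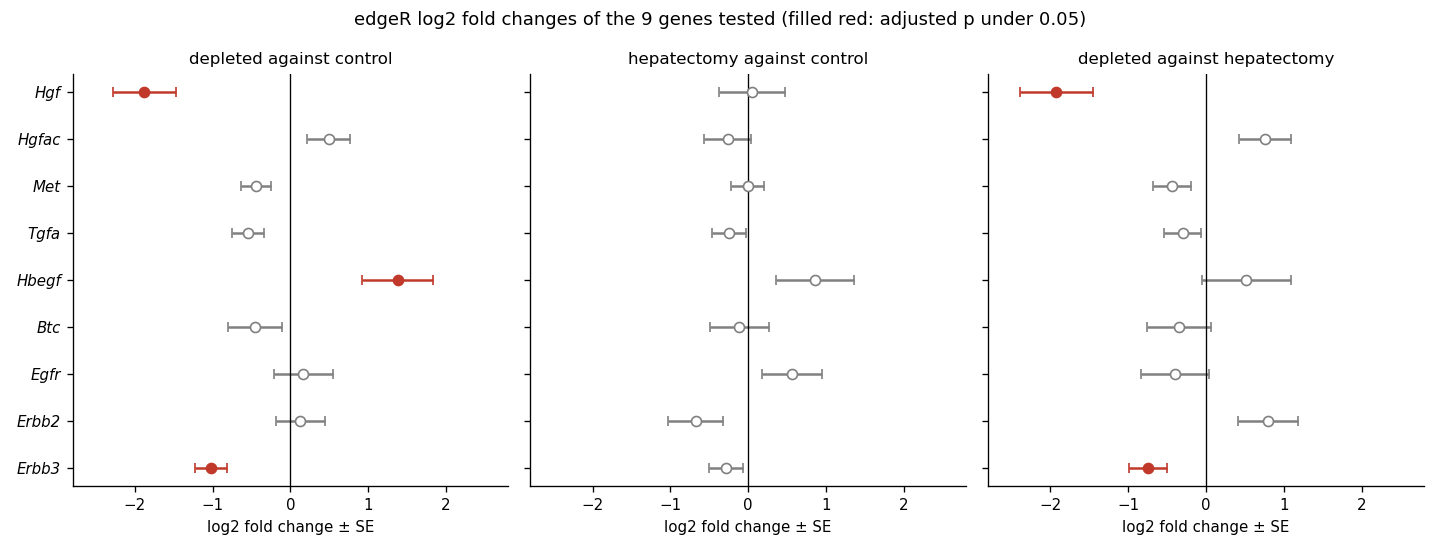
edgeR log2 fold changes with their standard errors (horizontal axis) for the 9 genes tested in the 3 comparisons, filled red where the adjusted p was under 0.05. Hgf and Erbb3 are filled in both comparisons of the depleted livers, Hbegf in the comparison with controls, and no gene in the comparison of hepatectomised with control livers.

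Hgf (ENSMUSG00000028864.5, chromosome 5, 16553495 to 16620152, plus strand, GRCm38) is the ligand whose level fell furthest. RefSeq gives 2 starts for Hgf, and the 250 bases before the upstream one (build GRCm38.p6, chr5:16553245-16553494, plus strand) are shown because Hgf carries the largest difference among the 10 genes. Capitals mark matches to any of 6 motifs searched on both strands: TATA box TATAAA, GC box GGGCGG, AP-1 TGANTCA, STAT TTCNNNGAA, C/EBP TTGCNNAA and CRE TGACGTCA. Of 32851 promoter windows of this length, 12.4% held the TATA box, 32.7% the GC box, 6.75% AP-1, 7.02% STAT, 9.56% C/EBP and 1.55% CRE. A match is a run of letters and not a bound site. Neither this window nor that of the second start (chr5:16553651-16553900, not printed) held any of the 6, which says only that these letters are not in this window.
Hgf: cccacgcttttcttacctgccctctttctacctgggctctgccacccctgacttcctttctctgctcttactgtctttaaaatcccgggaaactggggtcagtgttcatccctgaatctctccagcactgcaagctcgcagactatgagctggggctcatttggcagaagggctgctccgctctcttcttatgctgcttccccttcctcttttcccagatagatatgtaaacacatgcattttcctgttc

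In controls, Hgf ranged from 3.87 CPM (control 6) over a median of 17.4 CPM to 20.5 CPM. Depleted livers held 5.10, 4.86, 4.28 and 2.32 CPM, and livers after hepatectomy 17.1, 10.9 and 13.6 CPM. The depleted livers were low throughout and did not overlap with the hepatectomised ones. They overlapped with the controls only through control 6, the next control being control 1 at 8.97 CPM. Against controls, Hgf fell by 1.88 ± 0.41 on the log2 scale (SE, edgeR adjusted p = 0.00349), which is 3.67-fold lower. Without control 6 it fell by 2.04 (edgeR adjusted p = 0.000256), and no library left out in turn ended the call. Against hepatectomised livers, Hgf fell by 1.92 ± 0.47 (SE, edgeR adjusted p = 0.0113). Hepatectomy itself left the log2 fold change at 0.05 ± 0.42 (SE, edgeR adjusted p = 0.963), an estimate whose error spans changes of either sign.

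Hgf and the stellate markers were lowered to different degrees. The mean of the summed markers in depleted livers was 4.07% of the control mean, and that of Hgf was 28.0%. Single depleted livers kept 34.6%, 32.9%, 29.0% and 15.7% of the control mean of Hgf. Depleted replicate 4, which retained the most stellate marker RNA (10.9% of the control mean), had the least Hgf. Control 6, with the lowest marker sum among controls (48.7% of the control mean), also had the lowest Hgf of the controls (26.2%). The part of the markers in the Hgf difference was not tested, and in bulk tissue fewer cells of a type and less RNA per cell cannot be told apart. For sinusoidal endothelium, also named above as a source of HGF, 10 markers summed to 92.7 to 436 CPM in controls. Depleted replicates 1 to 4 held 476, 469, 442 and 233 CPM, with 1 gene higher and 1 lower by the edgeR test. In the same depleted livers 4 smooth muscle markers summed to 0.707 to 11.7 CPM (controls 5.79 to 18.9 CPM). Neutrophil markers summed to 189 to 415 CPM (controls 0.660 to 4.79 CPM). The part of these cell types in the Hgf difference was not tested.

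**Figure D3:**
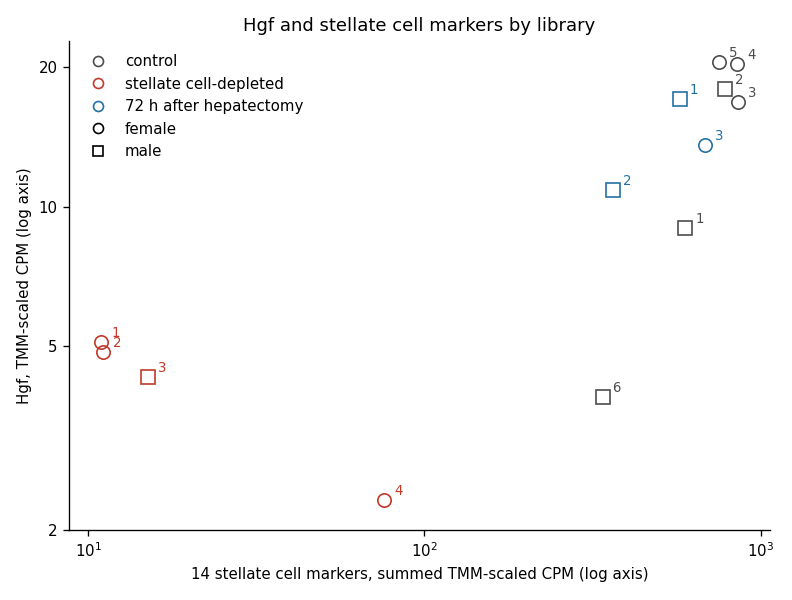
Hgf (vertical axis, TMM-scaled CPM, logarithmic) against the summed CPM of 14 stellate cell markers (horizontal axis, logarithmic), 1 point per liver with its replicate number; circles are females, squares males. The 4 depleted livers lie at marker sums of 10.9 to 75.9 CPM and Hgf of 2.32 to 5.10 CPM, and control 6 lies at 338 and 3.87 CPM.

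Among 10548 genes searched, those whose log2 CPM over the 13 livers was most like that of Hgf were Abcc9 (Pearson r = 0.96), a subunit of ATP-sensitive potassium channels, Tmem47 (0.95), Fkbp9 (0.94), Disp2 (0.93) and Bcl2l13 (0.93). These 13 points share the 3 groups, so the values describe a pattern and carry no test. With each group's mean removed, r with Hgf was 0.92 for Abcc9 and 0.83 to 0.88 for the other 4. Like Hgf, Abcc9 kept more of its control level in depleted livers (42.9%) than the stellate markers did.

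Hgfac (ENSMUSG00000029102.7, chromosome 5, 35041509 to 35048461, plus strand) encodes the serum protease that cuts HGF, a product of hepatocytes. Its window (RefSeq, GRCm38.p6, chr5:35041259-35041508, plus strand) is printed as that of the gene with the highest mean per length in control and depleted livers; after hepatectomy Egfr was higher, and the ranges of the pair overlapped there and in controls. It held 1 match to the STAT motif, bases -167 to -159 before the start.
Hgfac: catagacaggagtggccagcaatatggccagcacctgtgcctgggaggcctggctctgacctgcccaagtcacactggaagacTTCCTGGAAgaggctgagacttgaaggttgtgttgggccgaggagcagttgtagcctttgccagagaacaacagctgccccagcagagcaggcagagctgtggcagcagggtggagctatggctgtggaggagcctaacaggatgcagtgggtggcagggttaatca
Hgfac ranged from 99.4 over a median of 211 to 266 CPM in controls. It stood at 334, 323, 275 and 265 CPM in depleted livers and at 137, 98.8 and 265 CPM after hepatectomy. Every depleted liver was at the top of the control range or above it, the lowest of them just under control 3. The difference from controls, 0.49 ± 0.28 on the log2 scale, did not pass (SE, edgeR adjusted p = 0.191). Against hepatectomised livers it was 0.76 ± 0.33 (SE, edgeR adjusted p = 0.120). That value passed without hepatectomy replicate 3 (1.27, edgeR adjusted p = 0.0410) and without control 4 (0.71, edgeR adjusted p = 0.0380). It also passed with scaling to library size alone (1.09, edgeR adjusted p = 0.0226) and in the fit with the replicate number as a block (1.00, edgeR adjusted p = 0.0451). Per length, Hgfac exceeded Hgf by a median of 29.2-fold within control livers, 139-fold within depleted and 19.1-fold within hepatectomised livers. The ratio ranged from 136 to 241 in depleted and from 10.3 to 90.5 in control livers, with no overlap.

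Met (ENSMUSG00000009376.13, chromosome 6, 17463800 to 17573980, plus strand), the HGF receptor, stood at 88.7 to 138 CPM in controls with a median of 116 CPM. Depleted livers held 94.6, 95.6, 70.6 and 69.6 CPM, and hepatectomised livers 104, 151 and 81.9 CPM. The ranges overlapped between all groups. Its difference in depleted livers was -0.44 ± 0.20 on the log2 scale (SE, edgeR adjusted p = 0.103). It passed without hepatectomy replicate 3 (-0.49, edgeR adjusted p = 0.0489) and when the 2 groups were fitted alone (-0.49, edgeR adjusted p = 0.0435). After hepatectomy Met was at -0.01 ± 0.21 (SE, edgeR adjusted p = 0.986).

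Proteases that activate HGF and their inhibitors were higher in depleted livers where they differed. Of 13 listed genes 12 were found in the table and tested, 5 rose and 0 fell, where 18.9% of all genes rose and 15% fell. Their median log2 fold change was 0.51. Plaur, the urokinase receptor, rose by 3.20 ± 0.37 on the log2 scale (SE, edgeR adjusted p = 4.26e-05), from 0.639 ± 0.243 CPM in controls (SD, n = 6) to 6.20 ± 2.37 CPM in depleted livers (SD, n = 4). Urokinase (Plau), matriptase (St14) and its inhibitor Spint1, named after their values were seen, were also among the 5. Only 2 of the list, Plaur among them, passed without depleted replicate 3, the single male. Neutrophil markers moved in the same livers, from 0.660 to 4.79 CPM in controls to 189 to 415 CPM (8 of 8 higher), as did monocyte markers, from 7.23 to 19.2 CPM to 209 to 417 CPM (5 of 6 higher). Only 2 of the 8 neutrophil markers passed the low-count filter in the controls alone, so their count is not read as support. The part of these cells in the rises was not tested.

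After hepatectomy 2 of the 12 rose and 0 fell, where 6.07% of all genes rose and 2.38% fell. The median of the 12 was 0.23. Tmprss2, a membrane serine protease, rose by 1.97 ± 0.35 (SE, edgeR adjusted p = 0.00603), from 5.89 ± 2.60 CPM in controls (SD, n = 6) to 21.4 ± 8.81 CPM in hepatectomised livers (SD, n = 3). Its call ended only in the fit with the replicate number as a block (edgeR adjusted p = 0.0537). Without hepatectomy replicate 2 the list counted 1 higher and 0 lower.

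Of the EGF family ligands among the 10 genes, Hbegf alone passed the edgeR test in depleted livers. Tgfa (ENSMUSG00000029999.12, chromosome 6, 86195223 to 86275719, plus strand) was the highest of them per length. It ranged from 18.1 over a median of 26.7 to 29.0 CPM in controls. Depleted livers had 22.7, 15.1, 19.98 and 10.1 CPM and hepatectomised livers 19.8, 22.1 and 23.4 CPM. The depleted livers overlapped with the controls only through control 3, the lowest control. The difference from controls was -0.54 ± 0.20 (SE, edgeR adjusted p = 0.0548). It passed in DESeq2 (-0.53, adjusted p = 0.0434) and limma-voom (-0.58, adjusted p = 0.0383), in a model without sex (-0.59, edgeR adjusted p = 0.0357), and without control 3 (-0.64, edgeR adjusted p = 0.0349) or depleted replicate 1 (-0.73, edgeR adjusted p = 0.0133). After hepatectomy it was -0.25 ± 0.22 (SE, edgeR adjusted p = 0.519).

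Hbegf (ENSMUSG00000024486.5, chromosome 18, 36504927 to 36515805, minus strand), an EGFR ligand that binds heparin, was scarce in controls, at 0.240 over a median of 1.09 to 2.01 CPM. Depleted livers reached 5.27, 2.53, 1.89 and 2.695 CPM. Hepatectomised livers held 2.06, 0.393 and 2.19 CPM. Of the depleted livers 3 lay above every control, and replicate 3 lay just under control 3. Hbegf rose by 1.38 ± 0.45 on the log2 scale in depleted livers (SE, edgeR adjusted p = 0.0317), a 2.60-fold change. The call rested on single libraries: the adjusted p of edgeR was 0.0592, 0.0551 and 0.0657 without controls 1, 4 and 5, 0.0995 without depleted replicate 1 and 0.137 without depleted replicate 3. In female livers alone the value was 1.16 (edgeR adjusted p = 0.0743), and without control 6 it was 1.24 (edgeR adjusted p = 0.0421). The neutrophil and monocyte markers given above, the 7 T and NK cell markers (2.43 to 5.50 CPM in controls, 48.9 to 120 CPM in depleted livers, 7 of 7 higher) and 3 of 6 Kupffer cell markers (52.2 to 465 CPM, then 570 to 1288 CPM) rose in the same livers. Their part in the Hbegf difference was not tested. After hepatectomy Hbegf was at 0.86 ± 0.51 (SE, edgeR adjusted p = 0.323).

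Btc (ENSMUSG00000082361.4, chromosome 5, 91357261 to 91402994, minus strand) passed in no comparison. It ranged from 1.23 over a median of 2.54 to 3.21 CPM in controls. Depleted livers had 1.52, 0.784, 2.57 and 2.14 CPM and hepatectomised livers 1.79, 2.33 and 2.62 CPM. Its log2 fold change was -0.46 ± 0.35 in depleted livers (SE, edgeR adjusted p = 0.344) and -0.11 ± 0.38 in hepatectomised livers (SE, edgeR adjusted p = 0.894).

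Areg (ENSMUSG00000029378.5, chromosome 5, 91139599 to 91148432, plus strand), an EGFR ligand known to be induced in injured liver, was at the limit of detection. It had 0 counts in all 6 controls, 0, 0, 1 and 2 counts in depleted replicates 1 to 4, and 2, 2 and 0 counts after hepatectomy. No library reached 3 counts, so no fold change is given, and a level under 0.0588 to 0.0848 CPM was not detectable at this depth. Its promoter window (RefSeq, GRCm38.p6, chr5:91139349-91139598, plus strand) is shown because it held the most different motifs of the 8 genes with an entry, though hardly any transcript was counted. The matches are a CRE (TGACGTCA, bases -61 to -54), a GC box (bases -52 to -47) and a TATA box (TATAAA, bases -31 to -26).
Areg: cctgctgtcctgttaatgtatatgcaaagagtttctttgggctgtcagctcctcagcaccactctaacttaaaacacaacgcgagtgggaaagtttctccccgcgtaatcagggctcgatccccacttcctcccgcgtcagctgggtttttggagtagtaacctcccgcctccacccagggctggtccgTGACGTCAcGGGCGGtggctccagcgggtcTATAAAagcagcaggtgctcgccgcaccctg

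A further 10 ligands and receptors of both families were listed, and 8 of them were tested. In depleted livers Nrg4 and Nrg2 rose, Erbb4 fell and the other 5 did not pass, where 18.9% of all genes rose and 15% fell. Nrg4, a ligand of ERBB4 secreted by fat and other tissues, ranged from 3.12 to 12.5 CPM in controls. It stood at 12.4, 17.1, 12.4 and 17.8 CPM in depleted livers and at 19.1, 40.6 and 25.4 CPM after hepatectomy. All 3 hepatectomised livers lay above every control, a rise of 2.04 ± 0.38 (SE, edgeR adjusted p = 0.00770) that passed under every alternative setting. The rise in depleted livers, 1.03 ± 0.35 (SE, edgeR adjusted p = 0.0399), ended without any 1 of controls 2, 3 and 4, depleted replicates 2, 3 and 4 or hepatectomy replicate 3 (adjusted p up to 0.0952). Nrg2, a neuregulin named after its values were seen, had 27, 24, 69 and 15 counts in depleted livers, against 4 counts in control 3 and 0 in the other 5 controls. It passed the low-count filter only through the depleted livers, where it was high, so its call is not read as support. After hepatectomy Nrg4 was the 1 gene of the 8 to rise and 0 fell, where 6.07% of all genes rose and 2.38% fell. The median of the 8 was 0.75. Egf itself stood at 0.494 to 0.632 CPM in controls, 0.379 to 1.21 CPM in depleted and 0.118 to 0.748 CPM in hepatectomised livers, and its difference of 0.64 in depleted livers did not pass (edgeR adjusted p = 0.285).

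Of the genes that release EGF family ligands from the membrane, several rose in depleted livers: of 9 tested, 6 rose and 0 fell, where 18.9% of all genes rose and 15% fell. Their median log2 fold change was 0.67. The 6 include Adam8, a protease of myeloid cells named after its values were seen, which passed the low-count filter only through the livers where it was high, so its calls are not read as support. Rhbdf2, the pseudoprotease that carries ADAM17 to the cell surface, rose by 1.58 ± 0.16 (SE, edgeR adjusted p = 1.95e-05), from 8.39 ± 1.26 CPM in controls (SD, n = 6) to 24.1 ± 4.11 CPM in depleted livers (SD, n = 4). Timp3, a secreted inhibitor of ADAM17, rose as well, by 1.45 ± 0.39 (SE, edgeR adjusted p = 0.0124), so that members of opposite function are among the 6. Without depleted replicate 3 only 3 of the list were called, Adam8 among them, and Timp3 was at 1.25 (edgeR adjusted p = 0.0918). The neutrophil and monocyte markers given above rose in the same livers, and their part was not tested. After hepatectomy 2 of 9 were called higher, Rhbdf2 and again Adam8, and 0 lower, where 6.07% of all genes rose and 2.38% fell. The median of the 9 was 0.34. Rhbdf2 rose by 0.90 ± 0.17 (SE, edgeR adjusted p = 0.00843).

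Of the receptors, Egfr (ENSMUSG00000020122.14, chromosome 11, 16752203 to 16918158, plus strand) spread most widely in controls, where males and females lay apart. Its window (RefSeq, GRCm38.p6, chr11:16751953-16752202, plus strand) is shown as that of the most variable of the abundant receptors. It held 1 GC box, read on the opposite strand (CCGCCC, bases -9 to -4). Of the other genes' windows, not printed, that of Met held 3 GC boxes and 1 AP-1 motif (TGAGTCA, bases -54 to -48), that of Tgfa 2 GC boxes, and those of Erbb2 and Btc none of the 6 motifs. Erbb3 and Hbegf were without an entry.
Egfr: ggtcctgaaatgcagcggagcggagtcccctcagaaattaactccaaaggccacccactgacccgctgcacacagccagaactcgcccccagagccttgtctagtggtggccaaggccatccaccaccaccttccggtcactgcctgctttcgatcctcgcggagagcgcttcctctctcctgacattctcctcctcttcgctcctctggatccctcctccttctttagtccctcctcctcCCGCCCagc
Male controls held 795, 753 and 562 CPM and female controls 141, 354 and 152 CPM, so that every male lay above every female. Depleted livers stood at 367, 281 and 372 CPM in females and 431 CPM in the male, and hepatectomised livers at 411 and 1070 CPM in males and 515 CPM in the female. Between male and female controls Egfr differed by 1.70 ± 0.37 on the log2 scale (SE), with an unadjusted edgeR p of 0.00222 and an adjusted p of 0.128. By this test 0 of the 9 genes differed between the sexes, where 0.738% of 13005 genes did, and 2 of 9 had an unadjusted p under 0.05. DESeq2 called Egfr alone (1.71, adjusted p = 3.58e-05), and limma-voom called 0. Without control 4, the highest female, edgeR called it too, at 2.26 (adjusted p = 0.00166). The second gene was Hbegf, at -1.51 ± 0.52 in males against females (SE, edgeR adjusted p = 0.297). The ranges of both genes did not overlap between the sexes, nor did those of 20.8% of all genes.

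With sex in the model, Egfr was at 0.17 ± 0.38 in depleted (SE, edgeR adjusted p = 0.775) and 0.56 ± 0.38 in hepatectomised livers (SE, edgeR adjusted p = 0.395). Neither passed, and the sign of the first turned without sex in the model (-0.34, edgeR adjusted p = 0.622). In female livers alone, depleted livers averaged 340 ± 51.1 CPM (SD, n = 3) and controls 216 ± 120 CPM (SD, n = 3), a difference of 0.66 (edgeR adjusted p = 0.266). The effect of depletion on Egfr in males minus that in females was -1.36 ± 0.73 on the log2 scale, from a single depleted male, and did not pass (SE, edgeR adjusted p = 0.9999). For hepatectomy the same difference was -1.18 ± 0.72 (SE, edgeR adjusted p = 0.776). These interactions called 0 of the 9 genes, 0 at an unadjusted edgeR p under 0.05, and 0.0217% and 0% of all genes. The genes most like Egfr in log2 CPM over the 13 livers were C8a (Pearson r = 0.94) and C8b (0.89), which encode chains of complement component C8, Slc12a4 (0.89), Serpina3k (0.88) and Slc35e3 (0.87), out of 10548 searched. With group means removed r was 0.86 to 0.94. Sex, by which the controls lay apart in Egfr, was not removed, and the genes were picked on these same 13 livers. The values therefore describe a pattern and carry no test.

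Erbb3 (ENSMUSG00000018166.8, chromosome 10, 128567523 to 128589652, minus strand), a receptor with little kinase activity of its own that signals in pairs with other ErbB receptors, was lower in depleted livers. It ranged from 147 over a median of 209 to 263 CPM in controls. Depleted livers held 132, 98.1, 88.1 and 86.9 CPM and hepatectomised livers 182, 217 and 132 CPM. All 4 depleted livers lay below every control and below every hepatectomised liver, though depleted replicate 1 only narrowly so. Erbb3 fell by 1.02 ± 0.20 on the log2 scale against controls (SE, edgeR adjusted p = 0.00197), which is 2.03-fold lower. That call held in every alternative fit, in female livers alone at -0.93 (edgeR adjusted p = 0.0398). Against hepatectomised livers it fell by 0.74 ± 0.24 (SE, edgeR adjusted p = 0.0446). This second call ended in 9 of the 13 fits that left out 1 library, namely controls 1, 3, 4 and 6, depleted replicates 2, 3 and 4 and hepatectomy replicates 1 and 2 (adjusted p 0.0548 to 0.221). After hepatectomy Erbb3 was at -0.28 ± 0.22 (SE, edgeR adjusted p = 0.458). Markers of hepatocytes, which carry most of the Erbb3 of liver, summed to 81980 to 145820 CPM in controls and 68411 to 164970 CPM in depleted livers, with overlap. By the edgeR test 1 of 8 was higher (Trf) and 1 lower (Cyp2e1). The log2 fold changes of 6 of the 8 were negative, with a median of -0.19. The neutrophil, monocyte, Kupffer and T and NK cell markers given above rose in the same livers. The part of these cell types in the Erbb3 difference was not tested.

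Erbb2 (ENSMUSG00000062312.5, chromosome 11, 98412470 to 98437716, plus strand), the ErbB receptor without a ligand of its own, had the lowest level per length of the 4 receptors among the 10 genes. It ranged from 0.810 over a median of 1.49 to 1.73 CPM in controls. Depleted livers had 2.27, 1.93, 1.34 and 1.14 CPM and hepatectomised livers 0.676, 0.617 and 1.35 CPM. The male hepatectomised livers lay below every control, while the female lay within their range. The log2 fold changes were 0.13 ± 0.32 in depleted (SE, edgeR adjusted p = 0.793) and -0.67 ± 0.35 in hepatectomised livers (SE, edgeR adjusted p = 0.265). Exons of the antisense gene Mien1 overlap those of Erbb2, and the strand setting of the counting is not given in the sources used here, so that reads of the pair may be mixed.

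Erbb4, the fourth ErbB receptor and the receptor of Nrg4, fell in depleted livers by 2.695 ± 0.58 (SE, edgeR adjusted p = 0.00331), from 5.66 ± 2.23 CPM in controls (SD, n = 6) to 0.893 ± 0.322 CPM in depleted livers (SD, n = 4). Its 4 depleted livers, at 0.771, 1.28, 0.524 and 1.00 CPM, lay below every control, the lowest of which had 2.05 CPM. The call held in every alternative fit. Hepatectomised livers held 0.588, 4.52 and 3.59 CPM, a difference from controls of -0.96 that did not pass (edgeR adjusted p = 0.322).

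Set in order of length-scaled level, TMM-scaled CPM per kilobase of the deposited gene length, the controls began with Hgfac at 58.5 ± 17.6 (SD, n = 6). Egfr followed at 40.6 ± 25.5, Erbb3 at 35.1 ± 7.08 and Met at 14.7 ± 2.49 (SD, n = 6). Below a gap came Tgfa at 2.96 ± 0.454, Hgf at 2.05 ± 0.946, Btc at 0.535 ± 0.150, Hbegf at 0.446 ± 0.274, Erbb2 at 0.271 ± 0.0643 (SD, n = 6) and Areg at 0. The ranges of neighbours in this order overlapped except between Erbb3 and Met, Met and Tgfa, and Erbb2 and Areg. In depleted livers Hbegf, at 1.30 ± 0.628 (SD, n = 4), stood above Hgf, at 0.576 ± 0.176 (SD, n = 4), without overlap. Within single livers Erbb3 exceeded Erbb2 per length by 77.7- to 222-fold in controls, 44.1- to 66.3-fold in depleted and 85.2- to 305-fold in hepatectomised livers, so that the ratio in depleted livers lay below that of every other liver. Met exceeded Hgf per length by 4.07- to 22.3-fold in controls, 15.4- to 28.1-fold in depleted and 5.65- to 12.99-fold in hepatectomised livers, with overlap of depleted livers and controls. Tgfa exceeded Hbegf by 2.48- to 33.3-fold in controls, with a median of 6.90-fold. In depleted livers that ratio was 1.03 to 2.92, with a median of 1.41, so that these ligands came near to each other in level. The ratio of Egfr to Erbb3 ran from 0.298 to 2.25 in controls, 1.48 to 2.60 in depleted and 1.20 to 2.62 in hepatectomised livers, with overlap.

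**Figure D4:**
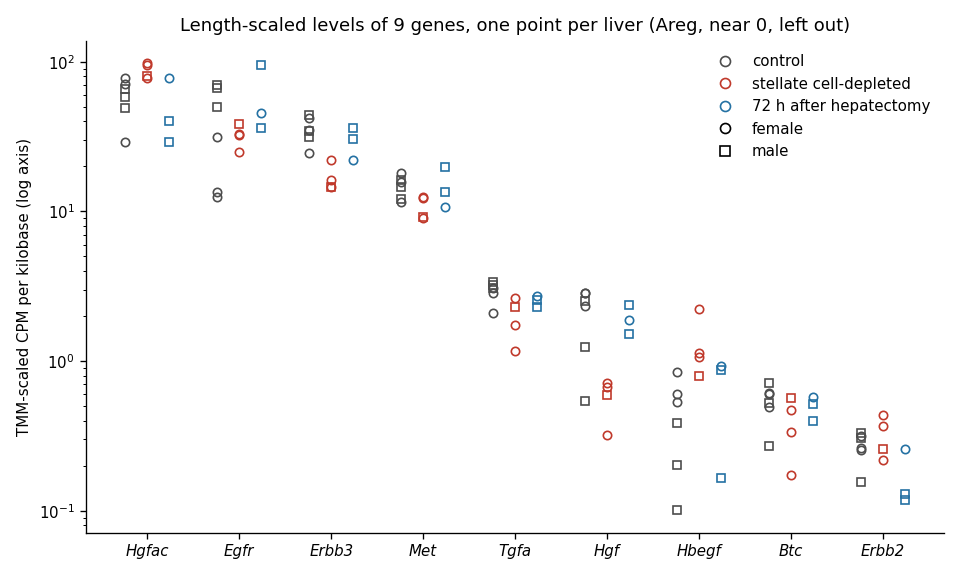
TMM-scaled CPM per kilobase (vertical axis, logarithmic) of 9 genes, ordered by their mean over all 13 livers, 1 point per liver; colours mark the groups, circles females and squares males. The activator and 3 receptors lie above 9 and the ligands and Erbb2 below 4 in every liver, and Hbegf lies above Hgf in all 4 depleted livers.

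Downstream of the receptors, inhibitors and adaptors were tested from lists of 20 and 24 genes. Of the receptor inhibitors and feedback genes 4 of 20 rose in depleted livers, where 18.9% of all genes did, a share near that of all genes. None fell, where 15% of all genes did, and the median log2 fold change was 0.25. Ptpn1, a phosphatase that acts on EGFR, MET and other receptors, rose by 1.45 ± 0.18 (SE, edgeR adjusted p = 6.93e-05), from 26.0 ± 3.998 CPM in controls (SD, n = 6) to 70.1 ± 10.2 CPM in depleted livers (SD, n = 4). Dusp5, an ERK phosphatase, rose by 1.40 ± 0.38 (SE, edgeR adjusted p = 0.0124), a call that ended without depleted replicate 3 (edgeR adjusted p = 0.112). The neutrophil and monocyte markers rose in the same depleted livers, and their part was not tested. After hepatectomy, where 6.07% of all genes rose and 2.38% fell, 2 of the 20 rose and 0 fell, with a median of 0.12. They were the same genes, Ptpn1 by 0.71 ± 0.20 (SE, edgeR adjusted p = 0.0434) and, in the same test, Dusp5 by 1.79 ± 0.40 (adjusted p = 0.0174). The first of these calls ended without hepatectomy replicate 2 (0.43, edgeR adjusted p = 0.226), among other libraries, and the second without hepatectomy replicate 3 (1.23, edgeR adjusted p = 0.149).

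Of the adaptors and kinases 5 of 24 were higher in depleted livers, near the 18.9% of all genes that were, and 8 were lower, where 15% of all genes were. Their median log2 fold change was -0.11. Gab2, a docking protein abundant in blood cells, rose by 1.82 ± 0.33 (SE, edgeR adjusted p = 0.00105), from 3.76 ± 1.33 CPM in controls (SD, n = 6) to 13.6 ± 3.13 CPM in depleted livers (SD, n = 4), in the livers in which the neutrophil and monocyte markers rose; their part was not tested. Pik3r1, the regulatory subunit of PI3 kinase, rose by 0.73 ± 0.20 (SE, edgeR adjusted p = 0.0117). Grb7, an adaptor that binds ErbB receptors, fell by 0.89 ± 0.19 (SE, edgeR adjusted p = 0.00262), from 103 ± 10.2 CPM in controls (SD, n = 6) to 54.9 ± 10.8 CPM in depleted livers (SD, n = 4). Akt2, the main AKT of insulin-responsive tissue, fell by 0.73 ± 0.10 (SE, edgeR adjusted p = 0.000150). In female livers alone 1 of the list was higher and 3 were lower. After hepatectomy 1 of 24 rose and 2 fell, where 6.07% of all genes rose and 2.38% fell. Plcg1, a phospholipase that binds EGFR, fell by 0.86 ± 0.14 (SE, edgeR adjusted p = 0.00437). The adaptor Grb2 was at 0.57 ± 0.14 (SE, edgeR adjusted p = 0.0217) and Sos2, which loads RAS with GTP, at -0.62 ± 0.18 (adjusted p = 0.0482 in the same test). Both calls ended without hepatectomy replicate 2, at 0.46 (edgeR adjusted p = 0.116) and -0.56 (edgeR adjusted p = 0.179), among other fits, while that of Plcg1 held in every alternative fit. The median was -0.14, and with scaling to library size alone 0 of the list rose and 10 fell.

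**Figure D5:**
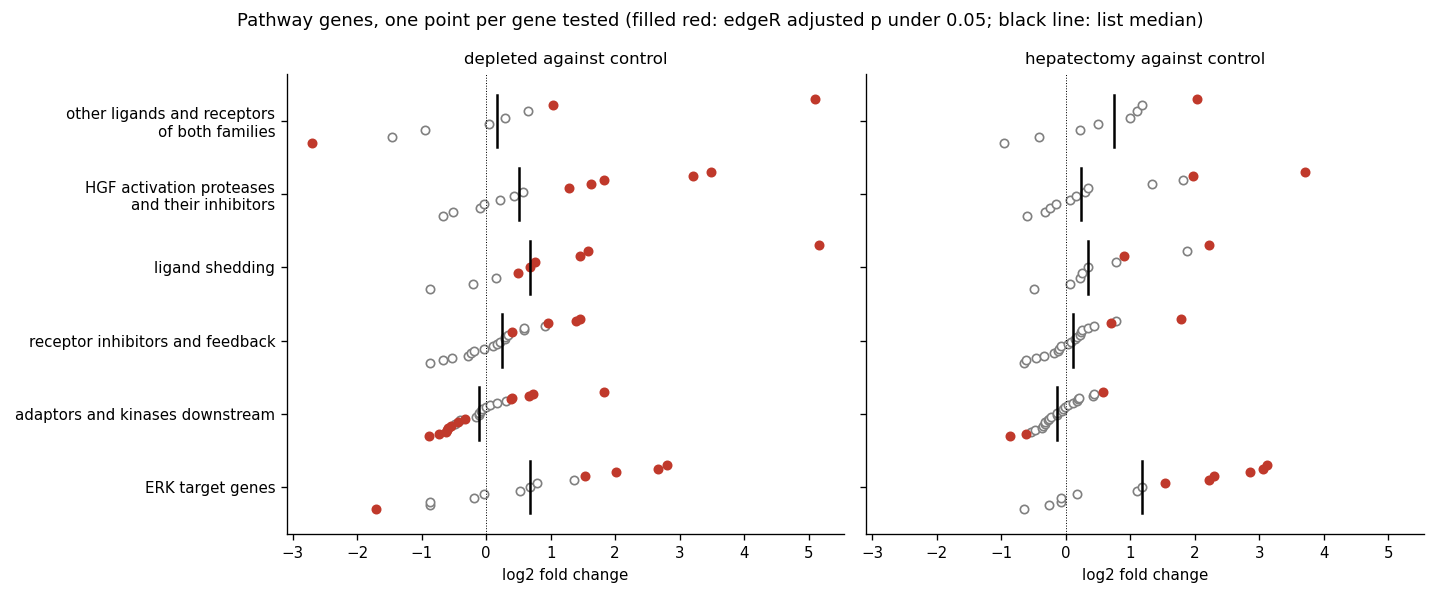
Log2 fold changes (horizontal axis) of the genes tested in 6 lists, in depleted (left) and hepatectomised livers (right) against controls; 1 point per gene, filled red where the edgeR adjusted p was under 0.05, with a black line at each list's median. Both panels share the controls. The shedding genes lie mostly to the right in the depleted livers, with 6 of 9 filled. Among these is Adam8, which passed the low-count filter only through the livers where it was high. After hepatectomy 6 of 13 ERK target genes are filled.

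Some of the genes induced by ERK signalling rose in both conditions. In depleted livers 4 of 13 tested rose and 1 fell (median log2 fold change 0.68), where 18.9% of all genes rose and 15% fell. After hepatectomy 6 rose and 0 fell (median 1.19), where 6.07% of all genes rose and 2.38% fell. The 6 include the transcription factor Etv4, whose call ended in 11 of 20 alternative fits and which passed the low-count filter only through livers other than the controls. With the replicate number as a block 3 rose and 1 fell, and the calls of Etv4, Ier3 and Egr1 ended. The neutrophil, monocyte and T and NK cell markers given above rose in the same depleted livers. After hepatectomy 6 of 8 neutrophil markers rose (19.1 to 33.4 CPM), a count under the limit of the low-count filter given above. The part of these cells was not tested. The immediate early gene Fos rose by 2.66 ± 0.44 in depleted (SE, edgeR adjusted p = 0.000533) and 3.05 ± 0.46 in hepatectomised livers (SE, edgeR adjusted p = 0.00289). Its level went from 0.645 ± 0.351 CPM in controls (SD, n = 6) to 4.31 ± 1.08 CPM in depleted (SD, n = 4) and 5.41 ± 3.25 CPM in hepatectomised livers (SD, n = 3). Ier3, an early gene of growth factor and stress responses, rose by 2.81 ± 0.50 in depleted livers (SE, edgeR adjusted p = 0.000952) and after hepatectomy by 3.12 ± 0.53 (SE, edgeR adjusted p = 0.00463). Ccnd1, cyclin D1 of the entry into the cell cycle, was the 1 gene lower in depleted livers, by 1.71 ± 0.55 (SE, edgeR adjusted p = 0.0289). Its depleted livers held 18.8, 17.1, 14.1 and 58.1 CPM and its controls ranged from 6.51 CPM (control 6) to 151 CPM, so that the groups overlapped. The call ended without control 4 or 5 or depleted replicate 1, 2 or 3 (edgeR adjusted p 0.0545 to 0.0804), in a model without sex (0.149) and with scaling to library size alone (0.0532). Against hepatectomised livers (73.2, 84.9 and 282 CPM) Ccnd1 fell by 2.90 ± 0.63 (SE, edgeR adjusted p = 0.00642), which no library left out in turn ended but a model without sex did (edgeR adjusted p = 0.0544).

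Of 8 genes of DNA replication and mitosis, 5 rose in depleted livers (median log2 fold change 2.17), where 18.9% of all genes did, and 8 after hepatectomy (median 3.96), where 6.07% did. Top2a, topoisomerase of dividing cells, rose by 2.94 ± 0.75 in depleted livers (SE, edgeR adjusted p = 0.00922), and Rrm2, a subunit of ribonucleotide reductase, by 2.83 ± 0.57 (SE, edgeR adjusted p = 0.00226). Ccnb1, cyclin B1 of mitosis, rose by 5.02 ± 1.18 after hepatectomy (SE, edgeR adjusted p = 0.0230), a call that ended without control 1, control 2 or hepatectomy replicate 2. Cdk1, the mitotic kinase, rose by 4.30 ± 0.77 after hepatectomy (SE, edgeR adjusted p = 0.00671). The count after hepatectomy was 2 without hepatectomy replicate 2, 4 without control 1 and 5 without control 2, and the count in depleted livers was 2 without depleted replicate 3 and 3 without depleted replicate 4. In bulk liver these genes do not say which cells divide. The T and NK cell, neutrophil and monocyte markers rose in the same depleted livers, and mesothelial markers rose in the hepatectomised ones (3 of 4 higher, 0.330 to 3.04 CPM in controls, 6.48 to 35.7 CPM after hepatectomy). Their part was not tested.

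Set directly against hepatectomised livers, depleted livers had 4 of the 12 HGF activation genes higher and 2 lower, where 13.3% of all genes were higher and 10.1% lower. Plau, the urokinase gene, was 2.42 ± 0.68 higher on the log2 scale (SE, edgeR adjusted p = 0.0221) and Tmprss2 fell by 1.535 ± 0.40 (SE, edgeR adjusted p = 0.0149). Matriptase (St14) was 1.94 ± 0.46 higher (SE, edgeR adjusted p = 0.00949), a call that ended without depleted replicate 3. Of the shedding genes 3 of 9 were higher and 2 lower. Higher were Timp3, at 1.94 ± 0.50 (SE, edgeR adjusted p = 0.0155), Rhbdf2, at 0.68 ± 0.20 (SE, edgeR adjusted p = 0.0252), and Adam8, whose call is not read as support for the reason given above. The inactive rhomboid Rhbdf1 was lower, at -0.97 ± 0.25 (SE, edgeR adjusted p = 0.0151). Of the ERK target genes 0 of 13 were higher and 2 lower, Ccnd1 and Junb, a partner of Fos, which fell by 1.44 ± 0.35 (SE, edgeR adjusted p = 0.0109). Without depleted replicate 3 the HGF activation genes counted 0 higher and 1 lower, and the shedding genes 1 and 1, the 1 higher being Adam8. The calls of Plau, Tmprss2, Timp3, Rhbdf1, Rhbdf2 and Junb each ended without hepatectomy replicate 3, and those of Plau and Timp3 also without hepatectomy replicate 2 or depleted replicate 3.

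In the same comparison, where 13.3% of all genes were higher and 10.1% lower, 2 of 20 receptor inhibitors were higher and 1 lower. They were Cblb, a ubiquitin ligase of activated receptors (0.87 ± 0.22, SE, edgeR adjusted p = 0.0142), Ptpn1 (0.74 ± 0.23, SE, edgeR adjusted p = 0.0310) and Spry1, an inhibitor of RAS signalling (-0.90 ± 0.29, SE, edgeR adjusted p = 0.0414). The Ptpn1 and Cblb calls ended without depleted replicate 3, and that of Spry1 in 9 of the 13 fits that left out 1 library. Of the adaptors and kinases 3 of 24 were higher and 2 lower, near the shares of all genes. Scaling to library size alone made the counts 8 and 0. The count of those higher was 1 when only the 2 groups were fitted. It was also 1 without depleted replicate 3 or hepatectomy replicate 1 or 3. Gab2 was 2.08 ± 0.43 higher (SE, edgeR adjusted p = 0.00423), a call that held in every alternative fit, and Pik3r1 was 0.87 ± 0.25 higher (SE, edgeR adjusted p = 0.0238), which ended without depleted replicate 3. Hras fell by 0.92 ± 0.22 (SE, edgeR adjusted p = 0.00882), a call also lost without depleted replicate 3, and Akt2 by 0.72 ± 0.12 (SE, edgeR adjusted p = 0.00121). Both falls ended with scaling to library size alone. Of the proliferation genes 0 of 8 were higher and 1 lower, Cdk1 at -2.65 ± 0.88 (SE, edgeR adjusted p = 0.0479), a call that ended in most fits that left out 1 library.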

How the data were processed

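Whole-liver RNA of 13 libraries was sequenced after TRIzol extraction with a stranded mRNA kit, per the labels' protocols. The authors deposited raw read counts per gene and gene lengths. The submitters' processing notes name STAR 2.7.1a, SAMtools 1.15.1, featureCounts 1.6.4 and build mm10; multi-mapping and strand settings are not given in the sources used here, and either could move counts of overlapping genes. Symbols came from GENCODE release 21 of mouse for 21741 genes, with 307 unmatched. Counts were tested with edgeR 4.0.16 in R 4.3.3 (filterByExpr, TMM, robust quasi-likelihood F-test, two-sided, Benjamini-Hochberg over all genes, threshold 0.05), with group and sex over all 13 libraries, or with sex over the 6 controls. An interaction of group and sex was added after seeing the data. The test was also run on simulated counts with the same dispersion for every gene, no sex effect and few changed genes. That run differs from these data in each of these points and does not vouch for the calls here. DESeq2 1.42.0, limma-voom 3.58.1, other scalings and filters, female livers alone and left-out libraries were alternatives. Total counts of 35360991 to 51008737 limit the precision, and the floor of 3 counts covers counting error only. No batch is labelled, so a batch that followed the groups cannot be told apart from them. No libraries of a group agreed within sampling noise, the lowest median chi-square per gene being 4.60.

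The 10 genes, the pathway lists and the marker lists were chosen with earlier results of these data known. All 10 genes are described. Of each list, up to 2 rises and 2 falls per comparison are named, those of largest log2 fold change among genes called with a mean log2 CPM (prior count 2) of at least 0. Genes named outside that rule are marked, and 1 gene that the rule names is not reported here. For Hgf and Egfr the 5 genes of highest Pearson r are named, and Areg was too low for this. Promoter windows of 250 bases come from RefSeq (GRCm38.p6), which held 8 of the 10 genes.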

Additional observations from a re-analysis of the deposited data

How the results depend on the processing

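Over all alternatives, the log2 fold changes of the 9 genes in the comparisons of groups and of sexes gave 675 values, of which 644 kept their direction and side of the threshold or differed in sign without passing it, 18 lost a call, 13 gained one and 0 called values reversed. Genes of the pathway lists gave 2288 values, with 254 calls lost, 8 gained and 0 reversed. Hgf and Erbb3 against controls kept their calls in all 22 alternatives, Hgf between -2.22 and -1.66 on the log2 scale. Leaving out 1 library in turn gave 2 to 4 of the 9 genes called in depleted against control livers, 1 to 3 in depleted against hepatectomised livers and 0 to 1 between the sexes. Fitting only the 2 groups compared gave 1 of 9 in depleted against hepatectomised livers, and DESeq2 gave 1 of 9 between the sexes.

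Over all genes, depleted against control livers gave 4692 calls, 2695 in females alone and 2960 (without depleted replicate 3) to 4928 when 1 library was left out. Hepatectomised against control livers gave 1168, 2192 with scaling to library size alone, 1939 with DESeq2 and 483 (without hepatectomy replicate 2) to 1458 with a library left out, 692 without control 1 and 742 without control 2. Depleted against hepatectomised livers gave 3236, 2105 when only the 2 groups were fitted and 1709 (without depleted replicate 3) to 3850 with a library left out. Between the sexes 96 genes were called, 445 with DESeq2 and 32 (without control 1) to 200 (without control 2) with a library left out, 47, 50 and 63 without controls 3, 5 and 6. Scaling to library size alone turned the split of higher to lower calls after hepatectomy from 839 against 329 to 626 against 1566, that of depleted against hepatectomised livers from 1837 against 1399 to 3102 against 610, and that of depleted against control livers from 2614 against 2078 to 2884 against 1471. It put the median over all genes tested at a log2 fold change of -0.24 after hepatectomy and 0.27 between depleted and hepatectomised livers. The causes were not tested.

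The replicate numbers are shared between groups, but the labels do not say that they pair libraries. Correlations of the deviations of same-numbered libraries ran from -0.10 to 0.42 for depleted and control livers, from -0.19 to 0.08 for hepatectomised and control livers and from 0.04 to 0.27 for depleted and hepatectomised livers. In none of these comparisons was every pair over 0.1, and not every library correlated best with its own number. With the replicate number as a block, 2, 0 and 3 of the 9 genes were called against 3, 0 and 2, and 3887, 632 and 3170 of all genes, in the order depleted against control, hepatectomised against control and depleted against hepatectomised. Hbegf was then at 1.04 (edgeR adjusted p = 0.153) against controls, and Hgfac was gained against hepatectomised livers. Depth limited Areg, which no library held at 3 counts, and groups of 3 and 4 libraries with 1 depleted male limit the comparisons by sex.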
